A study of Mus musculus with 6 samples.

Results

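The genes described here are those of the cytosolic ribosomal proteins, taken as every gene symbol of the count table that begins with Rpl or Rps and a digit, together with Rplp0, Rplp1, Rplp2 and Rpsa. Kinase symbols beginning with Rps6k (10 genes) and symbols containing -ps, which mark pseudogenes (6 genes), were left out. The rule gave 86 of 23337 genes: 46 encode proteins of the large (60S) subunit, 31 encode proteins of the small (40S) subunit, and 7 are paralogues of such genes (Rpl3l, Rpl10l, Rpl22l1, Rpl36al, Rpl39l, Rps27l and Rps4y2). The other 2, Rpl7l1 and Rps19bp1, share the naming pattern but are not counted as subunit genes. Fau and Gnb2l1 (also called Rack1) encode ribosomal proteins under other names and are treated separately.

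The libraries were polyA-selected RNA of sorted mouse leukaemia-initiating cells (LICs), the cells able to propagate a leukaemia, from a source labelled as haematopoietic stem and progenitor cells. The 2 groups differed in the labelled age: 3 libraries came from adult LICs (replicates 1, 2 and 4) and 3 from neonatal LICs (replicates 4, 7 and 8). The labels name no driver oncogene, strain, sex, age in weeks or sorting gate, and do not say whether the libraries of a group came from separate animals, so the spread behind each p-value is that of the libraries and may be technical. Total counts per library were between 60113466 and 66132051, except in neonatal replicate 4, which had 3932833. That library also stood apart in its ribosomal protein counts, so results are given with and without it. Levels are given in CPM, a gene's counts divided by the scaled total count of its library and multiplied by 1000000. Xist was at 0.610 to 0.919 CPM in the adult libraries and at 51.7 to 186 CPM in the neonatal ones, and the Y-linked gene Ddx3y was at 98.7 to 154 CPM in the adult and at or near 0 in the neonatal libraries, so sex and age group cannot be told apart here. Summed markers of maturing neutrophils were at 1844 to 14882 CPM in the adult and 79.6 to 292 CPM in the neonatal libraries. All 10 of them had negative fitted values over 6 libraries. In neonatal replicate 4, however, Mmp8 (20.6 CPM) and Cxcr2 (42.4 CPM) were above every adult library. Lcn2 in that library (137 CPM) and Mmp9 in neonatal replicate 8 (14.0 CPM) lay within the adult range. Summed stem and progenitor markers were at 167 to 280 CPM in the adult and 718 to 2236 CPM in the neonatal libraries. Cd34 and Flt3 were higher in all 3 neonatal libraries than in any adult one, while Kit (23.6 CPM) and Meis1 (38.9 CPM) in neonatal replicate 4 were below every adult library and Ly6a (log2 fold change -1.59) and Hlf (-3.42) had negative fitted values. Mecom, 1 of the 7 stem and progenitor markers, was at 0 in all 6 libraries, as were the lymphoid markers Ms4a1, Pax5, Cd3e and Cd3g. Other lymphoid markers had counts. Cd79b was at 28.3 to 68.5 CPM in the adult and 70.7 to 146 CPM in the neonatal libraries, and Cd79a, Ebf1, Cd3d and Lck reached at most 1.67 CPM.

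A ribosome is built from ribosomal RNA and one copy of nearly every ribosomal protein, so the cell makes these proteins in matched amounts. Their messenger RNAs are short and abundant, and most begin with a C followed by an unbroken run of pyrimidines, the terminal oligopyrimidine (TOP) tract, through which mTORC1 and LARP1 control how many of them are translated. Loss of 1 copy of some of these genes, RPS19 and RPL5 among them, impairs red cell production in people, and altered ribosomal proteins such as RPL5, RPL10 and RPL22 occur in human leukaemia.

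The start regions of these genes are shown first, since several short motifs are known from this family. In RefSeq's annotation of GRCm38.p6, 57 of the 77 subunit genes matched a promoter entry, and 34 of these (59.6%) had a TOP-like start, searched as a C followed by at least 4 pyrimidines with the C within 10 bases of an annotated start, against 34.4% of 27025 genes. The letters CTTTCC lay between 10 bases before and 50 after the start, on the coding strand, in 28.1% of the subunit genes and 3.0% of all genes, and they can overlap a TOP-like run. The letters CCGGAAG, searched on both strands over 250 bases before to 50 after the start, were found in 42.1% against 9.9%, and TATAAA, searched between 45 and 11 bases before the start, in 0 of 57 against 2.7%. Among members with high levels per length and a single annotated start, Rpl41 and Rps3a had no TOP-like start and are not shown. The following starts are examples from members with high levels per length or large fitted differences and a single annotated start. Each shows 20 bases before the start followed by 20 bases that begin with it, 5′ to 3′ on the gene's strand, with the TOP-like run in capitals where there is one.
Rpl35 (chr2:39005112-39005151, minus strand): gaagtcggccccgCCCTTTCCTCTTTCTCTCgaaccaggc
Rps18 (chr17:33955646-33955685, minus strand): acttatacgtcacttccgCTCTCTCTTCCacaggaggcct
Rps23 (chr13:90923102-90923141, plus strand): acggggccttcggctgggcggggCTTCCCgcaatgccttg
Rpl12 (chr2:32961692-32961731, plus strand): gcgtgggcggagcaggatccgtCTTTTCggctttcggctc
Rpl18 (chr7:45718051-45718090, plus strand): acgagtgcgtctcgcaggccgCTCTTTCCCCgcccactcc
Rpl22l1 (chr3:28805488-28805527, plus strand): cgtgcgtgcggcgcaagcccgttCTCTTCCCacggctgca
Rpl13 (chr8:123102330-123102369, plus strand): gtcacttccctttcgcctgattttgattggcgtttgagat
Rpl37a (chr1:72711240-72711279, plus strand): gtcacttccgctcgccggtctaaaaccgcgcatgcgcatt
Rpl36al (chr12:69184048-69184087, minus strand): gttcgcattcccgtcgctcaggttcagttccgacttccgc
In the last 3 no such run begins in the window searched. Rpl13 has one that begins before this window and reaches into it, and Rpl37a and Rpl36al have shorter ones outside it. Rpl13 had the highest level of all members, and fold changes were similar with and without a match: the median log2 fold change between the age groups was 0.43 over 34 subunit genes with a TOP-like start and 0.38 over 22 tested genes without one, and -0.43 and -0.49 when neonatal replicate 4 was left out.

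Ribosomal protein genes took 5.71%, 4.26% and 4.47% of all counts in adult replicates 1, 2 and 4, and 10.03%, 3.73% and 3.71% in neonatal replicates 4, 7 and 8. Neonatal replicate 4 was 2.70 times the mean of the other neonatal libraries, and those other 2 were below every adult library. The group means were 4.82% ± 0.785 (SD, n = 3) in adult and 5.82% ± 3.64 (SD, n = 3) in neonatal LICs, a difference of 1.01 percentage points (two-sided exact permutation p = 1). Without neonatal replicate 4 the neonatal share was 1.10 percentage points lower (difference -1.10, two-sided exact permutation p = 0.2), where no 3-against-2 comparison can reach p under 0.1. Counts per exon length gave the same order, with 12.4%, 9.51% and 10.3% in the adult and 18.4%, 9.34% and 9.13% in the neonatal libraries. Fewer cells of a type and less RNA per cell cannot be told apart in these bulk values.

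**Figure D1:**
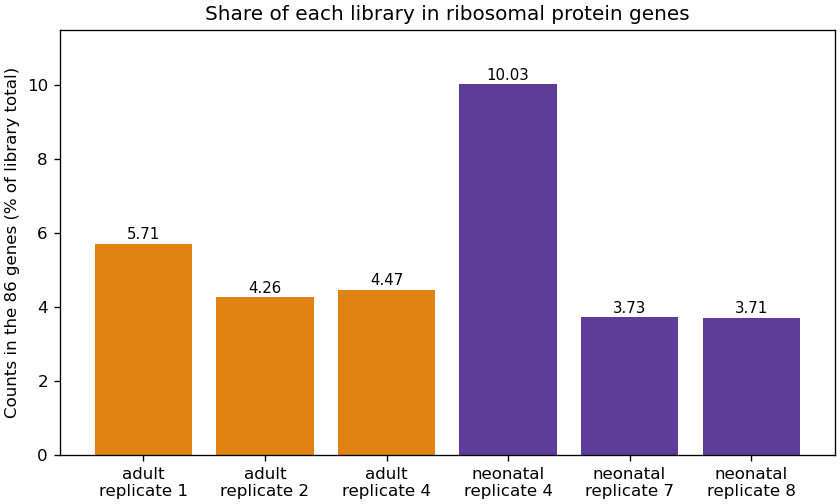
Bars give the percent of each library's total counts that fell in the 86 ribosomal protein genes, 1 bar per library, with adult LICs in orange and neonatal LICs in purple. Neonatal replicate 4 reached 10.03%, and the other neonatal libraries (3.73% and 3.71%) sat below the 3 adult libraries.

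The proportion of counts in large and small subunit genes varied little between libraries. Genes of the large subunit held 57.9%, 58.7% and 58.3% of the subunit counts in the adult libraries and 57.6%, 59.0% and 59.7% in the neonatal ones. The groups overlapped, and the difference of 0.445 percentage points was within the spread of the libraries (two-sided exact permutation p = 0.5). Neonatal replicate 4, which stood apart in the total, was the lowest of the 6 libraries in this proportion. Without it both neonatal libraries were above every adult library, and the difference was 1.01 percentage points (two-sided exact permutation p = 0.1, the smallest that this design allows). Without neonatal replicate 8 it was -0.0077.

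Per exon length, on the TPM scale (counts divided by exon length and scaled to the same sum in each library), 36 of the 100 genes with the highest mean level were ribosomal protein genes. Rpl13, a protein of the large subunit, led with a mean of 4690 TPM. It was followed by Rpl32 at 4314 TPM, Rps19, a small subunit protein needed to mature 18S ribosomal RNA, at 3692 TPM, Rpl35 at 3606 TPM and Rps18 at 3158 TPM. The next 5 were Rpl41 at 3016 TPM, Rps3a at 2802 TPM, Rps29 at 2746 TPM, Rpl37a at 2335 TPM and Rps23, a protein of the decoding centre, at 2206 TPM. The 73 subunit genes with at least 1000 counts on average spanned a 50.4-fold range, from Rps15a at 93.0 TPM, whose annotated exons add up to 5134 bases, to Rpl13. Rpl22 was next above Rps15a at 135 TPM, with 2040 annotated exon bases.

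**Figure D2:**
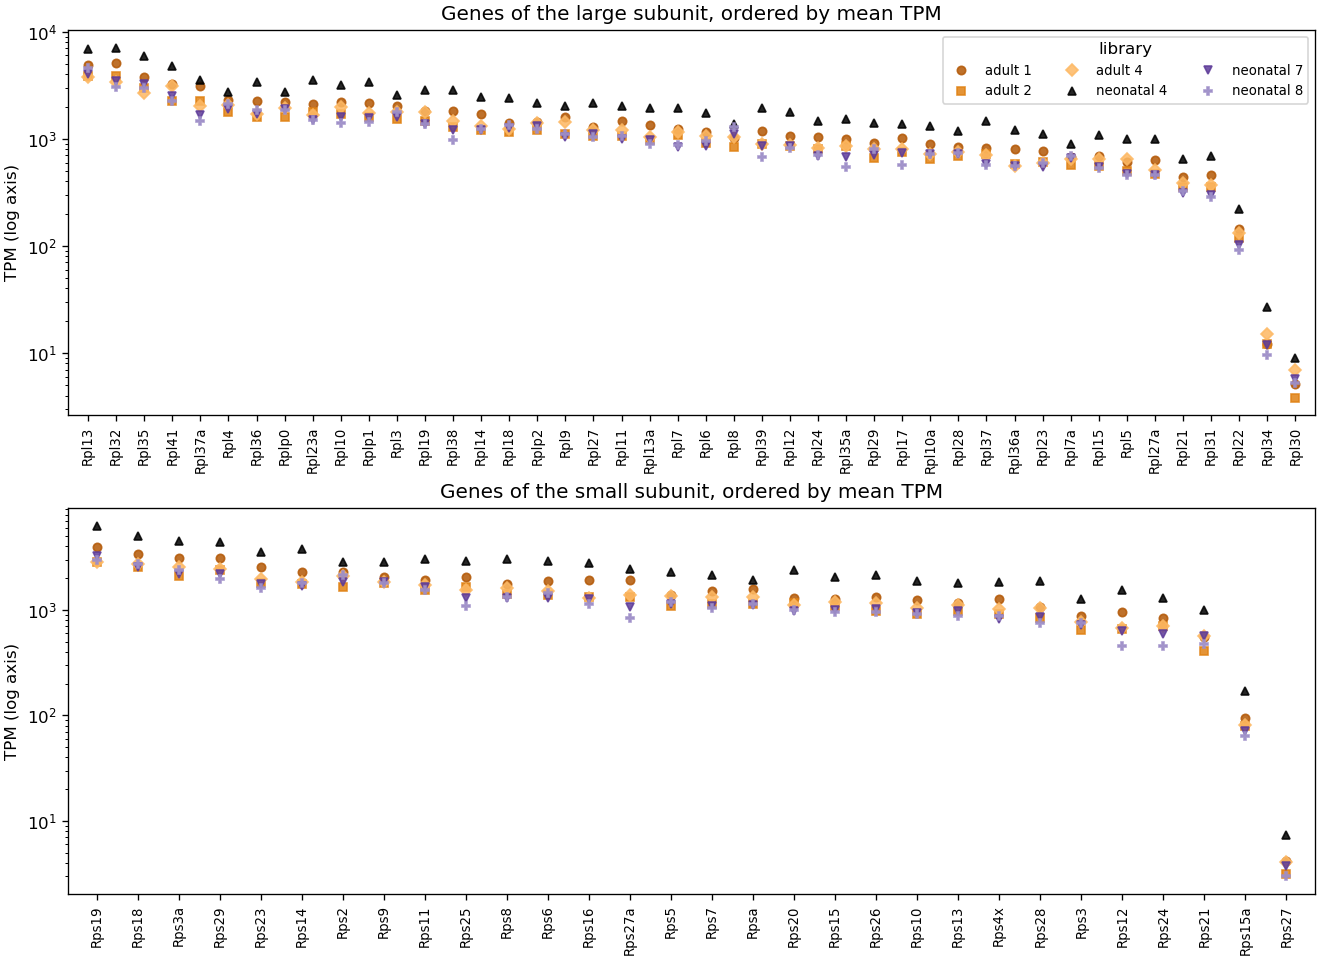
Columns are subunit genes with counts and each point a library; the vertical axis is TPM on a log scale, large subunit above and small subunit below. Neonatal replicate 4 (black triangles) is the highest point in nearly every column, the order of genes is alike in all 6 libraries, and Rpl34, Rpl30 and Rps27 lie far below the rest.

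Rpl26, Rpl30, Rpl34 and Rps27 had almost no counts, and in each of them most annotated exon bases also belonged to another annotated gene. The deposited counts left out reads that overlapped more than 1 gene. Rpl26 had 0 counts in all 6 libraries, with 520 of its 543 exon bases (95.8%) shared with Gm15772. Rpl30, at 1.37 to 4.78 CPM, had 76.0% of its exon bases under Gm12191. For Rpl34, at 2.92 to 13.7 CPM, the overlap was 67.2% (Rpl34-ps1), and for Rps27, at 0.874 to 3.59 CPM, it was 345 of 575 bases (Gm9846). Rpl5 (47.7%, Fam69a), Rpl31 (33.1%, Tbc1d8) and Rps25 (29.4%, Ccdc84) were overlapped in part, so the levels of these 7 genes are uncertain. Shared sequence adds to the uncertainty: in 22 of 76 subunit genes with counts, over 25% of the 75-base stretches of the gene's transcripts also occur in transcripts of other genes, most of all in Rpl23a (78.1%), Rpl35 (77.3%), Rpl36 (70.9%) and Rps3a (60.2%).

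The comparison of neonatal with adult LICs asked which genes differ in transcript level between the age groups. Ribosomal protein genes were not called different in it. Of 86 genes, 82 passed the filter on low counts, and edgeR's quasi-likelihood test with Benjamini-Hochberg adjustment over all genes called 0 of them, with 0 at an unadjusted p under 0.05. Over all genes tested it called 0.0527% (7 of 13272), with 11.9% at an unadjusted p under 0.05. DESeq2 also called 0 members, against 5.72% of all genes, and limma voom 0 against 0.0527%. The fitted log2 fold change was positive, higher in neonatal LICs, in 81 of the 82, and its median was 0.42 against 0.05 over all genes tested. The smallest adjusted p among them was 0.677 (Rpl8, edgeR). limma voom put the median at 0.08 with 56 positive and 26 negative.

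That positive median rested on neonatal replicate 4. It was the highest of the 6 libraries in 81 of the 82 genes, a pattern seen in 25.9% of all genes tested. In none of the 82 were all 3 neonatal libraries above every adult library (7.69% of all genes tested), and in none were all 3 below every adult library (11.97%). Without neonatal replicate 4, 84 genes were tested, 82 of the fitted log2 fold changes were negative and the median was -0.48 against -0.05 over all genes. Neonatal replicates 7 and 8 were both below every adult library in 66 of the 84, against 25.6% of all genes tested, and both above in 0, against 24.99%. edgeR again called 0 of the 84 (5.98% of all genes tested), with 34 at an unadjusted p under 0.05, where 29.5% of all genes were. limma voom called 0 as well, against 6.7% of all genes. DESeq2 called 19 of them lower, 22.6% of the members, where it called 11.4% of all genes lower.

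**Figure D3:**
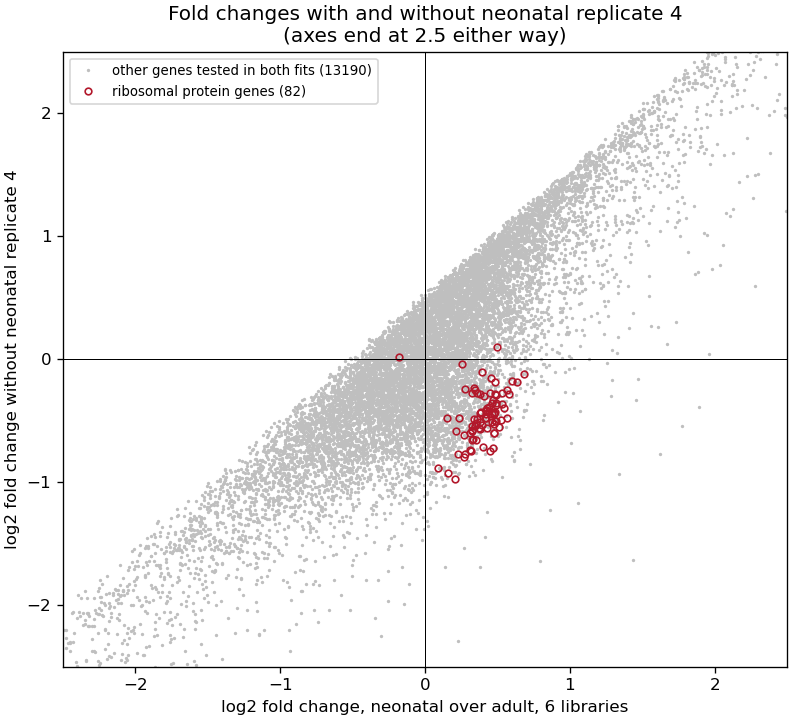
Each point is a gene tested in both edgeR fits, with the log2 fold change of neonatal over adult LICs from 6 libraries on the horizontal axis and from 5 libraries, without neonatal replicate 4, on the vertical axis. Nearly all of the 82 ribosomal protein genes (red circles) lie right of 0 and below 0, with medians of 0.42 and -0.48; other genes are grey, and axes end at 2.5.

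Genes with large fitted differences over 6 libraries illustrate how 1 library set the sign. Rps21, a small subunit protein, was at 132, 90.9 and 121 CPM in the adult libraries against 335, 105 and 94.7 CPM in the neonatal ones (replicates 1, 2 and 4 and then 4, 7 and 8), with log2 fold changes of 0.63 and -0.19 in the edgeR fits with and without neonatal replicate 4. Rpl18 was at 588, 447 and 461 CPM in the adult libraries against 1394, 410 and 466 CPM in the neonatal ones (0.60 and -0.17). In both genes the other neonatal libraries were within or close to the adult range. Rpl18 was followed by Rps19 (0.58), Rpl35 (0.57), Rps20 (0.56), Rps14 (0.54) and Rpl12 (0.53).

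The single negative value over 6 libraries belonged to Rpl3l, a paralogue of Rpl3 that is best known from muscle. It had 167, 87 and 42 counts in the adult and 3, 76 and 142 in the neonatal libraries, so neonatal replicate 4 fell near the limit of 3 counts. The groups overlapped (edgeR adjusted p = 0.959 for a log2 fold change of -0.18 ± 0.76, SE).

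Without neonatal replicate 4, the lowest adjusted p-values belonged to genes chosen for description after their values were seen. Rpl36al, an autosomal copy of the X-linked Rpl36a, was at 446, 351 and 411 CPM in the adult libraries against 238 and 232 CPM in the neonatal libraries 7 and 8, so both neonatal values were below all 3 adult ones. Its level was 944 CPM in neonatal replicate 4. The log2 fold change was -0.77 ± 0.18 (SE) in edgeR, with an adjusted p of 0.0553 that just missed the threshold of 0.05, and DESeq2 called it (adjusted p = 0.00118); over all the alternative fits its adjusted p ran from 0.00118 to 0.999. Rpl35a, a large subunit protein mutated in Diamond-Blackfan anaemia, was at 367, 294 and 280 CPM in the adult libraries, 193 and 167 CPM in the neonatal libraries 7 and 8 and 778 CPM in library 4 of that group. Its edgeR log2 fold change without that library was -0.79 ± 0.20 (SE, adjusted p = 0.0599). In this gene too, neonatal replicate 4 was above and replicates 7 and 8 were below all adult libraries.

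The widest gap between adult LICs and neonatal replicates 7 and 8 among well-counted members lay in Rps27l, Rps27a and Rpl37a. Rps27a encodes a ubiquitin fused to a small subunit protein, and it was at 961, 628 and 625 CPM in the adult libraries against 419 and 352 CPM in the neonatal libraries 7 and 8, 1.91 times higher in adult on average (log2 fold change -0.93 ± 0.25 SE, edgeR adjusted p = 0.0740). Neonatal replicate 4 was at 1706 CPM. At the other end stood Rpl8, a protein of the peptidyl transferase region. Its values were 533, 411 and 489 CPM in the adult libraries against 1011, 454 and 561 CPM in the neonatal ones, and it was the only subunit gene with a positive value in both fits (0.50 ± 0.37 and 0.10 ± 0.20, SE; edgeR adjusted p = 0.677 and 0.776). The 19 genes that DESeq2 called without neonatal replicate 4 included Rpl36al, Rpl39l, Rpl35a, Rpl7, Rps27a, Rps27l, Rps24, Rpl22, Rpl37a, Rps25, Rpl22l1, Rpl37, Rpl5, Rpl31, Rpl10, Rpl38, Rps15a and Rpl19, with both subunits and 4 paralogues among them.

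Sorted by role in the ribosome, most members shared the same order of libraries. Of the proteins that travel with 5S ribosomal RNA and can bind MDM2 when ribosome assembly fails, Rpl5 was at 748, 584 and 713 CPM in the adult libraries against 1733, 451 and 469 CPM in the neonatal ones. Rpl11 was at 532, 359 and 395 CPM in the adult libraries against 1021, 285 and 322 CPM in the neonatal ones. In both, neonatal replicate 4 was above and replicates 7 and 8 below all adult libraries. The stalk, which recruits translation factors to the large subunit, is formed by Rplp0, Rplp1 and Rplp2. Rplp0 was at 1820, 1248 and 1446 CPM in the adult libraries against 3211, 1228 and 1286 CPM in the neonatal ones, so that replicate 8 fell inside the adult range. For Rplp1 the values were 615, 429 and 443 CPM against 1357, 352 and 339 CPM, and for Rplp2 they were 390, 306 and 336 CPM against 818, 277 and 279 CPM. Rpsa, the small subunit protein also known as the laminin receptor, was at 1809, 1206 and 1355 CPM in the adult libraries against 3076, 985 and 1089 CPM in the neonatal ones. None of these 6 genes passed the edgeR threshold in either fit.

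Among genes tied to anaemia when haploinsufficient, Rps19 was at 1529, 1022 and 988 CPM in the adult libraries against 3361, 985 and 943 CPM in the neonatal ones, and Rps14 at 833, 606 and 598 CPM in the adult libraries against 1944, 479 and 548 CPM in the neonatal ones. Both again had their maximum in neonatal replicate 4 and their minimum in replicates 7 or 8. The median over the 31 small subunit genes was 0.44, and -0.47 without neonatal replicate 4; over the 45 large subunit genes tested it was 0.41 and -0.45. The 4 X-linked subunit genes, Rpl10, Rpl36a, Rpl39 and Rps4x, had medians of 0.44 and -0.56, beside 0.42 and -0.45 for 72 autosomal ones, and 0 of the 4 passed the edgeR threshold. Rpl10 was at 1060, 769 and 861 CPM in the adult libraries against 2161, 604 and 573 CPM in the neonatal ones.

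Ratios between libraries varied less among subunit genes than among other genes above the same minimum level. This is a description over genes that share depth and scaling, and the other genes were not matched for level or exon length. Among genes with a mean of at least 100 CPM, the standard deviation of the log2 ratio between 2 libraries was lowest for adult replicates 1 and 2, at 0.10 over 73 subunit genes and 0.45 over 2369 other genes. It was highest for neonatal replicates 4 and 8, at 0.30 and 1.33. Fitted differences were also narrow: the interquartile range of log2 fold changes was 0.15 in the members and 0.87 over all genes with 6 libraries, and 0.29 and 1.16 without neonatal replicate 4. Adult libraries differed among themselves in the same way, with adult replicate 1 the highest adult library in 79 of 82 members (32.9% of all genes tested). The ratio of neonatal replicate 4 to the mean of replicates 7 and 8 ran from 1.99 in Rpl8 to 4.89 in Rps12 over the 76 subunit genes, with a median of 3.60.

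When libraries were scaled to their summed ribosomal protein counts instead, an alternative chosen after seeing the data, the medians were -0.0041 and -0.06 with and without neonatal replicate 4. This scaling makes the members' sum equal in all libraries. Medians near 0 and few low p-values among the members were thus largely fixed in advance. What remained was a difference among members: without neonatal replicate 4, Rps27l (-0.56), Rps27a (-0.49), Rpl37a (-0.45) and Rpl35a (-0.38) were the lowest apart from the sparsely counted paralogues Rpl39l and Rps4y2, and Rpl8 (0.50) was the highest subunit gene. edgeR called 0 of the members under this scaling, against 0.0226% of all genes tested with 6 libraries and 7.79% without neonatal replicate 4. In the second of these fits 3 of 84 members had an unadjusted p under 0.05, against 28.7% of all genes, and the adjusted p of Rpl8 was 0.165.

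Ribosomal protein genes are short, with a median exon length of 718 bases against 2802 for other genes at a mean of at least 10 CPM, and length went along with the ratios between libraries. For neonatal replicate 4 over replicates 7 and 8, other genes under 600 bases had a median log2 ratio of 1.77 (143 genes), close to the 1.91 of the 30 members in that range. The medians then separated: 1.27 against 1.80 at 600 to 1000 bases, 0.48 against 1.74 at 1000 to 2000 bases, and -0.54 (5982 other genes) against 1.95 at 2000 bases and over, where only 4 members lie. Medians of the members thus stayed within 1.74 to 1.95, while those of other genes were lower at greater length. For neonatal replicates 7 and 8 over the adult libraries, medians of the 2 sets were -0.51 and -0.66 under 600 bases, -0.46 and -0.33 at 600 to 1000 bases, -0.44 and -0.01 at 1000 to 2000 bases, and -0.56 and 0.05 at 2000 bases and over, members first. Within 73 well-counted subunit genes the ratio of neonatal replicate 4 to replicates 7 and 8 was weakly related to log2 exon length (Pearson's r = -0.18 and Spearman's rho = -0.21, across genes of the same libraries, given as a description). For neonatal replicate 4 over the adult libraries r was -0.24 and rho was -0.31. For neonatal replicates 7 and 8 over the adult libraries they were 0.06 and 0.08. Offsets for gene length in the edgeR fit reduced the median to 0.11 with 63 of 82 positive, and to -0.18 with 64 of 84 negative without neonatal replicate 4. Over all genes tested the same fits gave medians of 0.06 with 54.4% positive, and -0.05 with 52.4% negative without that library. The part of length in the members' ratios was not tested further.

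**Figure D4:**
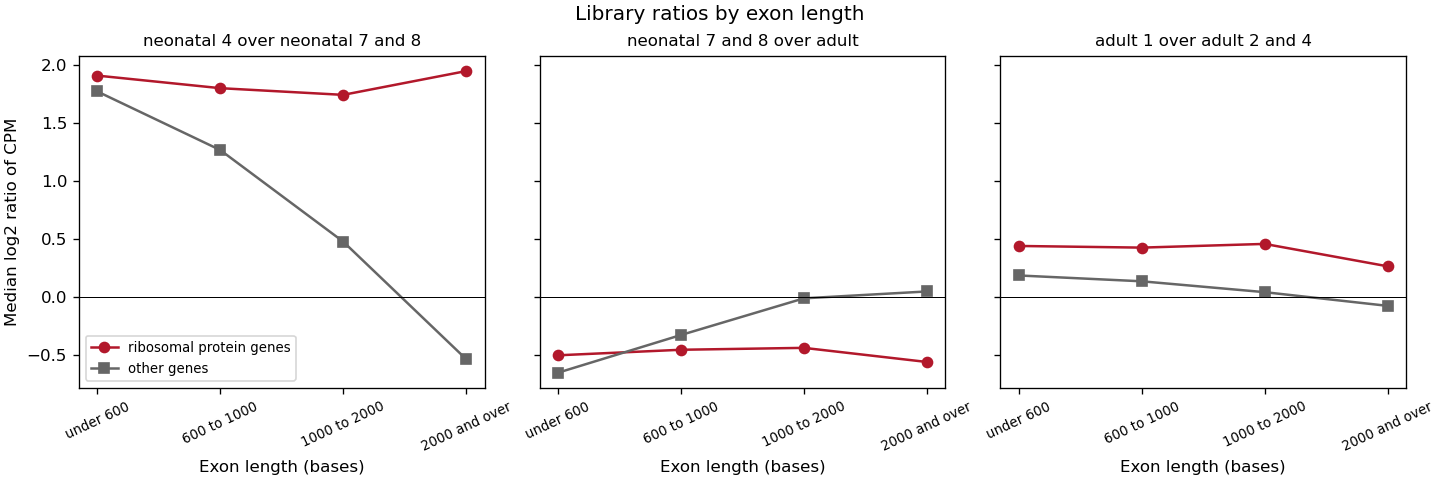
Points are median log2 ratios of CPM by exon length in bases, for ribosomal protein genes (red) and other genes (grey) with a mean of at least 10 CPM. From left to right the ratios are neonatal replicate 4 over replicates 7 and 8, neonatal replicates 7 and 8 over adult, and adult replicate 1 over replicates 2 and 4; other genes change with length and members stay between 1.74 and 1.95 in the left panel.

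Paralogues can replace or add to their parent proteins in some tissues, and 3 of the 7 were well expressed. Rpl22l1, a paralogue of the RNA-binding protein Rpl22, was at 87.6, 77.9 and 79.6 CPM in the adult libraries against 239, 56.5 and 40.4 CPM in the neonatal ones. Before division by length, Rpl22 was above Rpl22l1 in every library, ranging from 95.1 to 387 CPM. Its annotated exons add up to 2040 bases, against 477 for Rpl22l1, so the order of these genes depends on the annotated lengths. Per length, Rpl22l1 exceeded Rpl22 in every library, with ratios of 2.11, 2.42 and 2.31 in adult and 2.64, 2.43 and 1.82 in neonatal LICs. The groups overlapped, and the log2 difference was -0.01 (two-sided exact permutation p = 1). Rpl36al exceeded Rpl36a with ratios of 1.77, 2.03 and 2.62 in adult and 1.79, 1.72 and 1.58 in neonatal LICs, again overlapping (log2 difference -0.32, two-sided exact permutation p = 0.2, 0.4 after adjustment over the 4 pairs tested). Because 3 against 3 libraries cannot give a p under 0.1, no pair could have passed the threshold of 0.05. Rps27l, a p53 target, was at 321, 266 and 313 CPM in the adult libraries against 739, 193 and 111 CPM in the neonatal ones, and its ratio to Rps27 was not read because most exon bases of Rps27 are overlapped. The ratio of Rpl3l to Rpl3 was near 0 in every library (log2 difference -0.26, two-sided exact permutation p = 0.7, 0.933 after adjustment), and the log2 difference was 0.45 without neonatal replicate 4, where Rpl3l had only 3 counts.

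The remaining 3 paralogues were each carried by a single adult library or not seen. Rpl10l, best known from the testis, had 0 counts in all 6 libraries, where the limit of 3 counts corresponds to 0.0454 to 0.763 CPM. Rpl39l had 407, 17 and 4 counts in adult replicates 1, 2 and 4 and 0, 1 and 1 in neonatal replicates 4, 7 and 8, so nearly all of its reads came from adult replicate 1. Rps4y2, an autosomal copy of Rps4x on chromosome 6, had 22, 1179 and 5 counts in adult and 0, 4 and 0 in neonatal LICs, nearly all in adult replicate 2. Both were below the filter with 6 libraries, and without neonatal replicate 4 their edgeR adjusted p-values were 0.122 and 0.158, while DESeq2 called Rpl39l (adjusted p = 0.00238). Of the members that are not subunit genes, Rpl7l1, a relative of Rpl7, had nearly equal values in 5 libraries, 255, 269 and 299 CPM in the adult libraries against 251 and 280 CPM in the neonatal libraries 7 and 8, with 451 CPM in neonatal replicate 4. Rps19bp1, which encodes a protein that binds Rps19, was at 35.9, 28.7 and 33.3 CPM in the adult libraries against 63.7, 21.9 and 24.5 CPM in the neonatal ones.

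**Figure D5:**
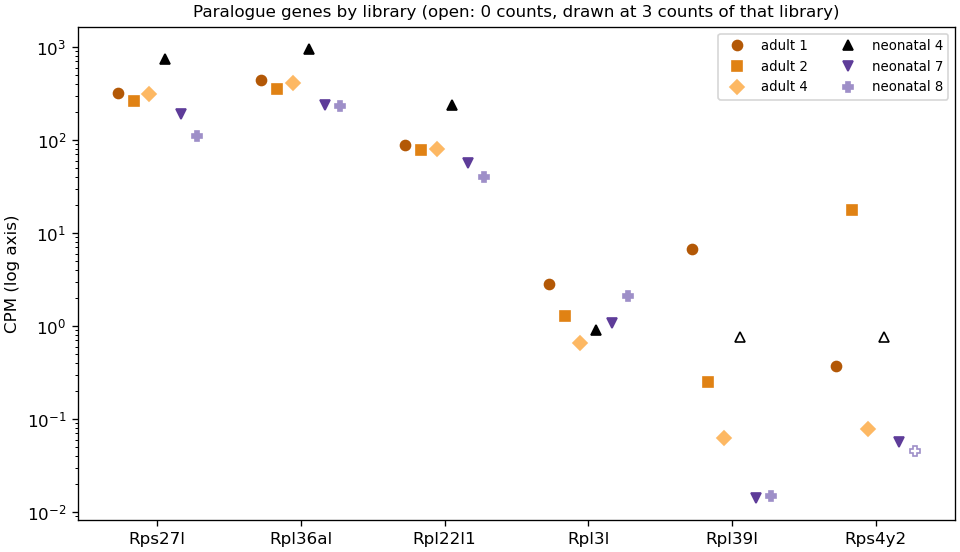
Points give CPM on a log scale for 6 paralogue genes, 1 point per library; open symbols mark 0 counts and are drawn at the CPM of 3 counts in that library. Rps27l, Rpl36al and Rpl22l1 follow the order seen in the other members, while Rpl39l is carried by adult replicate 1 and Rps4y2 by adult replicate 2.

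Ribosomal proteins with other names had values like those of the members. Gnb2l1, the small subunit's signalling scaffold, was at 696, 547 and 710 CPM in the adult libraries against 1529, 551 and 555 CPM in the neonatal ones, with log2 fold changes of 0.43 and, without neonatal replicate 4, -0.22. Fau, a small subunit protein made as a fusion with a ubiquitin-like part, was at 469, 302 and 359 CPM against 768, 262 and 297 CPM (0.23 and -0.42). Neither passed the edgeR threshold in either fit. Mitochondrial ribosomal proteins, which build a separate ribosome, had positive values in 72 of 76 genes with a median of 0.28, and negative ones in 56 of 76 with a median of -0.38 without neonatal replicate 4. In that second fit edgeR called 2 of them lower, Mrps21 (log2 fold change -0.92, adjusted p = 0.0450) and Mrpl51 (-0.79, adjusted p = 0.0469), a share close to the 2.25% of all genes that it called lower. Rn45s, the ribosomal RNA precursor, was picked out with its values known and stood at 1463, 1219 and 1164 CPM in the adult libraries against 1870, 3549 and 3536 CPM in the neonatal ones. All 3 neonatal values exceeded the adult ones (log2 fold change 1.22, edgeR adjusted p = 0.234, and 1.48 with adjusted p = 0.0324 without neonatal replicate 4). Because the libraries were polyA-selected, these counts need not reflect the level of the precursor in the cells.

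Translation factors had medians nearer 0 than the members when neonatal replicate 4 was left out. The lists given here were not matched to the members for exon length, which went along with the ratios between libraries. None of the 6 elongation factors passed the edgeR threshold in either fit, with medians of 0.44 and -0.06. Eef2, the translocase, was at 733, 563 and 615 CPM in the adult libraries against 387, 1036 and 1321 CPM in the neonatal ones, so neonatal replicate 4 was its lowest library (without it 0.90 ± 0.20 SE, edgeR adjusted p = 0.0522). Of 27 initiation factors tested, 0 passed in either fit (medians 0.16 and -0.23), and the smallest p without neonatal replicate 4 was that of Eif2s1, a subunit of eIF2 (-0.72, edgeR adjusted p = 0.0733). Other genes whose messenger RNAs carry a TOP tract had medians of 0.31 and -0.53 over 8 genes. The lowest values among them (-0.88 and -1.02) were those of Hnrnpa1, which had few counts (0.415 to 1.87 CPM). Vim, the intermediate filament gene of that list, was called higher without neonatal replicate 4 (1.26, edgeR adjusted p = 0.0360), opposite to the members, at 318, 247 and 257 CPM in the adult libraries against 381, 678 and 621 CPM in the neonatal ones. Of the 13 mTORC1 and TOP regulators 0 passed in either edgeR fit (medians 0.03 and 0.20), and the smallest p-values belonged to Myc (1.15, edgeR adjusted p = 0.424) and, without neonatal replicate 4, Eif4ebp2 (1.16, edgeR adjusted p = 0.0567). None of the 8 snoRNA host genes (medians 0.62 and -0.20) or of the 15 ribosomal protein chaperones and late assembly factors (0.25 and -0.05) passed either. The summed neutrophil and progenitor markers given above separate the age groups too, although some single markers of both lists overlap between the groups. The part of these markers in the lower values of ribosomal protein genes in neonatal replicates 7 and 8 was not tested.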

How the data were processed

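The authors deposited 1 table of raw counts per gene with featureCounts version 1.5.1, per the file headers; Trimmomatic, Bowtie, TopHat, DESeq2 and mm10 are named in the submitters' processing notes. The file header records counting of primary alignments of 75-base reads without strand and without reads that overlap several genes. The exon length of each gene is also a deposited column, given by the authors. Members, lists and tests were chosen with earlier results of these data known.

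Genes were kept by filterByExpr (minimum count 10), scaled by TMM and tested with robust quasi-likelihood in edgeR 4.0.16 (R 4.3.3), adjusted over all genes by Benjamini-Hochberg at 0.05. CPM uses the TMM-scaled totals. DESeq2 1.42.0 and limma 3.58.1 were alternatives, with other scalings, filters, length offsets, thinning and each library left out. Shares and paralogue ratios were compared by exact permutation (scipy 1.17.1). Transcript sharing used 75-mers. The script was tested on simulated counts. Named were the 10 members with the highest TPM, up to 8 per direction with the largest log2 fold change over 6 libraries, those past the threshold without neonatal replicate 4 (there were none; genes given in their place were chosen after seeing values), the paralogues with their parents, Rps14, Rps19, Rpl5, Rpl11, Rpsa and Rplp0, and 1 or 2 genes per list. Of 126 listed genes, 4 were matched by synonym and 2 had no match. Without neonatal replicate 4, edgeR called 2 of 6 stem and progenitor markers tested higher and 1 of 10 neutrophil markers (S100a8) lower. Over all 13856 genes tested that fit called 516 higher and 312 (2.25%) lower. With 6 libraries edgeR called 0 of either marker list. Lists for B, T, erythroid, platelet and macrophage markers had 0 genes called in either edgeR fit. Their summed CPM in adult and neonatal libraries ranged over 28.5 to 69.4 and 72.0 to 147 (B cell), 0.729 to 1.74 and 0.878 to 1.61 (T cell), 0.486 to 8.38 and 0.212 to 3.89 (erythroid), 0.514 to 5.43 and 0.299 to 45.9 (platelet), and 90.5 to 182 and 52.9 to 191 (macrophage). Sequences are RefSeq's for GRCm38.p6. Some genes that these rules name are not reported here.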

Additional observations from a re-analysis of the deposited data

How the results depend on the processing

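The count of all genes past the edgeR threshold, 7 with 6 libraries, ranged from 1 to 828 when each library was left out. It was 759 with DESeq2, 0 without chromosomes X and Y, 12 with libraries thinned to the shallowest and 3 when scaled to ribosomal protein counts. Without neonatal replicate 4 it was 3320 with DESeq2, 928 with limma voom, 459 with length offsets and 1079 when scaled to ribosomal protein counts. No ribosomal protein gene was called in any of these fits except the 19 by DESeq2 without neonatal replicate 4. Fits that combine its removal with another choice, and the scaling to ribosomal protein counts, were added after seeing the data.

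The median log2 fold change of the members ranged from -0.48 to 0.72 when each library was left out. Without neonatal replicate 4 it was -0.47 with DESeq2, -0.46 with limma voom and -0.18 with length offsets. Scaling to ribosomal protein counts, which itself brings the median near 0, gave -0.0041, and -0.063 without neonatal replicate 4. The difference in share of counts ranged from -1.10 to 2.06 percentage points when each library was left out, that in the large subunit's share from -0.0077 to 1.01, and the log2 difference in the Rpl22l1 to Rpl22 ratio from -0.12 to 0.15. Without 1 library, the log2 fold change ranged from -0.19 to 0.93 in Rps21, from -0.17 to 0.90 in Rpl18, from -0.66 to 0.54 in Rpl3l, from -0.18 to 0.76 in Rpl13, from -0.77 to 0.55 in Rpl36al, from -0.79 to 0.62 in Rpl35a and from -0.74 to 0.84 in Rpl22l1. limma voom gave 0.13 for Rpl3l, -0.23 for Rpl36al, -0.26 for Rpl35a and -0.37 for Rpl22l1. Length offsets gave -0.16 for Rpl36al, -0.14 for Rpl35a and -0.0195 for Rpl22l1. The cause of these reversals was not tested. Rpl8 kept a positive value in all its alternatives.

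No paired analysis was possible because the age groups share only 1 replicate number. The low depth of neonatal replicate 4 (3 counts equal 0.763 CPM) limits values near 0 there.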
